A study of Mus musculus with 4 samples.

Results

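Lipid droplet proteins and lipases were followed through the loss of Drp1 and exposure to palmitate in cultured mouse hepatocytes. The set holds 10 genes, namely Plin2, Plin3, Plin4, Plin5, Cidea, Cideb, Cidec, G0s2, Pnpla2 and Pnpla3, and was taken by gene name from 37074 gene names on the array. All 10 were well above background, by the scanner software's own flag, on at least 1 array, and 9 of them were so on all 4 arrays. The remaining gene, Pnpla3, was so on 1 array. The rule that picks them uses names alone, but the names were chosen with earlier results of these data known.

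The cells were primary hepatocytes of C57BL/6 mice, harvested 24 h after seeding, in 4 groups of 1 array each. Control cells came from littermates with floxed Drp1 alleles according to the methods, and the labels call them wild-type. Drp1LiKO cells came from mice with the same floxed alleles and Cre under the albumin promoter, so the deletion is aimed at hepatocytes. Whether other liver cells in the culture keep the gene was not tested. The methods name male animals. Each genotype was left untreated or given palmitate, a saturated fatty acid, at 200 μM. How long the array cells saw palmitate, and how old the mice were, is not given in the sources used here. No group has a replicate, so the spread from animal to animal or culture to culture is unknown. The label of the untreated control array says that its raw data also serve another series.

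A lipid droplet is a core of neutral lipid, mostly triglyceride and cholesteryl ester, wrapped in a phospholipid monolayer that carries proteins. Perilipins coat this surface and govern how easily lipases reach the core, CIDE proteins gather at contacts between droplets and move lipid into the larger one, and the lipase ATGL, encoded by Pnpla2, takes the first fatty acid off a triglyceride. In liver the amount of several of these proteins follows the fat content of the cell, and many of their genes are targets of the fatty acid receptors of the PPAR family. Drp1 itself, the product of Dnm1l, divides mitochondria, the organelles that burn the fatty acids that droplets release.

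The upstream sequences of Plin3, Plin4 and Cidec are shown because these genes differed between the genotypes in both conditions, the perilipins one way and Cidec the other. They come from RefSeq (GRCm38.p6), whose table here matched 9 of the 10 genes (not Cidea), and each run is the 250 bases before the annotated start, 5′ to 3′ on the strand of the gene. Capitals mark any match, on either strand, to AGGTCA (the half-site of PPAR and other nuclear receptors), CACGTG (an E-box), CCAAT (the site of NF-Y), TATAAA (a core promoter element) or GGGCGG (the site of Sp1, known as the GC box). Plin3 (chr17:56290512-56290761, minus strand) and Plin4 (chr17:56109783-56110032, minus strand) were higher in Drp1LiKO, and Cidec (the start at chr6:113435761-113436010, minus strand) was lower.
Plin3: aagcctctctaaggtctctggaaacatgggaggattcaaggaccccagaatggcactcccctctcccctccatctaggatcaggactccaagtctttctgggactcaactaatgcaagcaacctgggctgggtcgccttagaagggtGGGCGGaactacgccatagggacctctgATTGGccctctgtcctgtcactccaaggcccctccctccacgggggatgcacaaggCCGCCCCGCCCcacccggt
Plin4: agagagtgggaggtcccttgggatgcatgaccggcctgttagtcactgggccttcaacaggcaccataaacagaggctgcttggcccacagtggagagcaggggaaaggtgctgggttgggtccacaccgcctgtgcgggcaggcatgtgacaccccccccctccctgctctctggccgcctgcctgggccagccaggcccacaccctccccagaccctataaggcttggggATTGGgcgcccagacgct
Cidec: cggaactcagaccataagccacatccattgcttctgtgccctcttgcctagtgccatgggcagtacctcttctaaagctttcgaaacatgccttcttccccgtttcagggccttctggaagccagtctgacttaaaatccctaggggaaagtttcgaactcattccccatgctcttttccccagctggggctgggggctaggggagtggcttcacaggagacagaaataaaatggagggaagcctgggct
Plin3 and Plin4 share a CCAAT match, read as ATTGG on the printed strand, and Plin3 adds GC boxes, of which the last ones adjoin. Neither Cidec start in the table has any of these letters in its 250 bases. Of 32851 such windows, 33.8% hold CCAAT, 32.7% GGGCGG, 14.0% AGGTCA, 12.4% TATAAA and 6.02% CACGTG, so the matches are common ones. AGGTCA was found upstream of Plin2 and of 1 of the Plin5 starts.

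The label check read Dnm1l at 2.42 on the untreated control array and at 1.07 on the untreated Drp1LiKO array, and with palmitate at 2.43 in control and 1.01 in Drp1LiKO. Here and throughout, a level is a normalised log2 intensity in which the 75th percentile of the array has the value 0, so a difference of 1 is a 2-fold difference. A dimmer Dnm1l probe, well above background on the untreated arrays alone, differed between the genotypes by −0.35 untreated and by 0.22 with palmitate. The arrays had between 44.7% and 51.1% of their probes well above background and 0 saturated spots. Repeat spots of a probe on 1 array had a median SD of at most 0.04 log2 units. The scanner software's error model allows for labelling and hybridisation noise but knows nothing of animals or cultures. It gave differences of the 9 well measured genes an error between 0.20 and 0.29. On the bright Plin2 probe its error was 0.144 on each of the 4 arrays. For bright probes it is thus close to a fixed share of the signal, and not noise measured on these arrays. The palmitate arrays may lie on another slide than the untreated ones. If so, palmitate and slide cannot be told apart, whereas genotypes were compared within a slide. All 10 hepatocyte markers were well above background on all 4 arrays.

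The first question was whether the droplet genes differed without Drp1 in untreated cells and whether the same held with palmitate. Cidea was more than 2-fold and Plin4 about 2-fold higher in Drp1LiKO in both conditions, Plin3 was higher by less than 2-fold, and Cidec was lower by less than 2-fold. Plin2, Plin5, Cideb and G0s2 differed by at most 0.29 log2 units. In untreated cells 3 of 10 genes (Plin4, Cidea and the dim Pnpla3) were at least 2-fold higher in Drp1LiKO and 0 at least 2-fold lower, where 8.84% of 19875 genes were higher and 5.58% lower. Pnpla3 entered only because it was high on the Drp1LiKO array. Of the 9 genes measured on both arrays 2 were higher and 0 lower, with a median of 0.20. With palmitate 1 of 9 (Cidea) was higher and 0 lower, where 7.26% of 18890 genes were higher and 4.26% lower. The median difference over the genes was 0.24 untreated and 0.19 with palmitate, against −0.02 and −0.03 over all genes. A difference past 2-fold is a description of these arrays and carries no p-value. The genotype differences and the palmitate responses share the same 4 arrays and are not independent of each other.

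**Figure D1:**
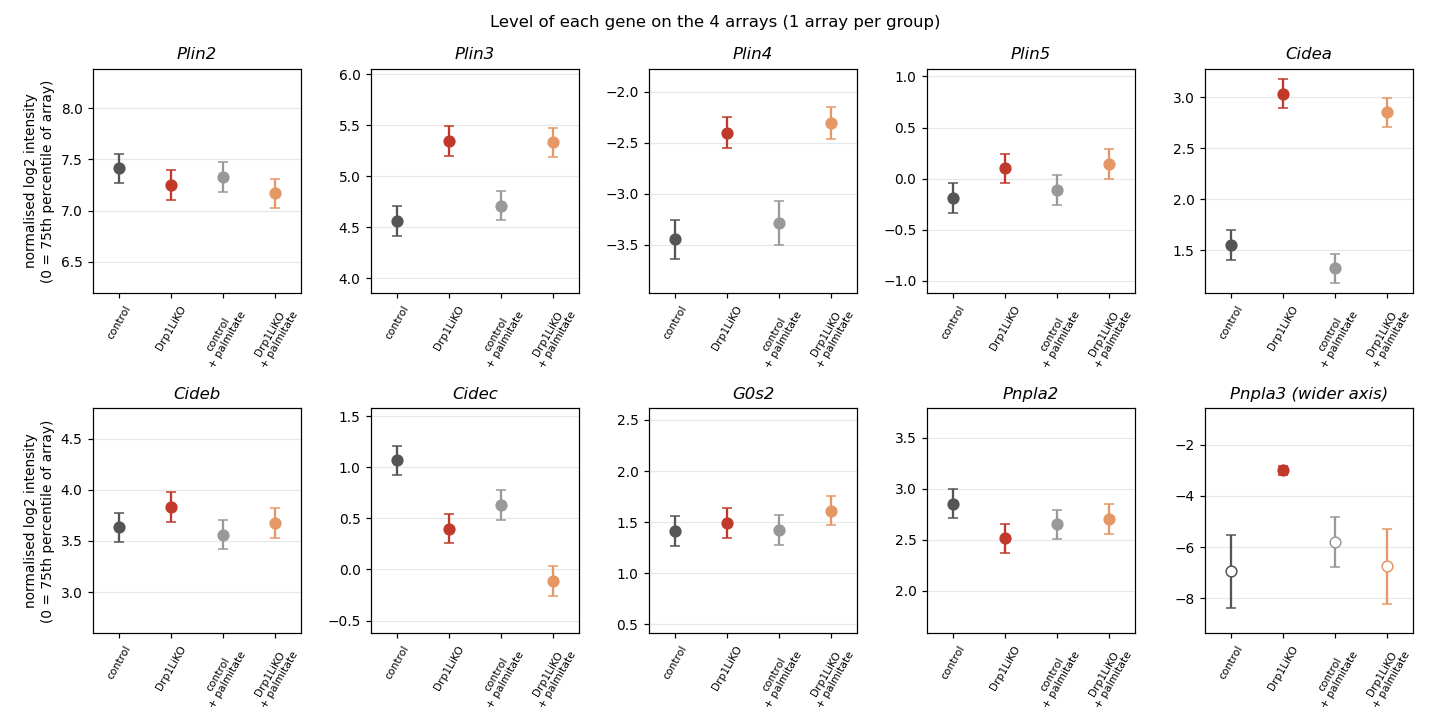
Normalised log2 intensity of the 10 genes on the 4 arrays, 1 panel per gene, with the untreated arrays at the left and the palmitate arrays at the right of each panel. Points are single arrays, bars are the scanner software's error, and open points are not well above background. The panels span 2.2 log2 units except that of Pnpla3. Cidea, Plin3 and Plin4 sit higher on both Drp1LiKO arrays, and Cidec is highest on the untreated control array and lowest on the Drp1LiKO palmitate array.

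Perilipins were taken first. Plin2, the perilipin that hepatocytes use most and whose protein is stabilised by droplet lipid, read 7.41 in control, 7.25 in Drp1LiKO, 7.33 in control with palmitate and 7.17 in Drp1LiKO with palmitate. Both Drp1LiKO arrays were below both control arrays, by 0.16 untreated and 0.16 with palmitate, which is within the scanner error. The probe lies on chromosome 4 at 86302847 to 86302906 (mm9). A dimmer Plin2 probe was highest on the untreated control array, at 2.98, and read 2.49, 2.64 and 2.60 on the others in the same order. Its genotype difference was −0.49 untreated and −0.03 with palmitate, so the probes of Plin2 differ on how far the control array stands above the rest.

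Plin3, a perilipin that is soluble in the cytosol and moves onto young droplets, read 4.56 in control and 5.35 in Drp1LiKO, and 4.71 and 5.33 with palmitate. The values on the Drp1LiKO arrays lie close together and above both control arrays. The fold was 1.72 untreated and 1.54 with palmitate, on a probe on chromosome 17 at 56418429 to 56418488 (mm9). Among genes measured on both arrays, 12.2% of 17652 differed by at least this much between the genotypes in untreated cells and 13.2% of 16784 with palmitate.

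Plin4, which coats droplets of fat and muscle cells and is dim in these cells, read −3.44 in control and −2.40 in Drp1LiKO, and −3.29 and −2.30 with palmitate. Its differences were 1.04 with a scanner error of 0.25 and 0.98 with an error of 0.27, so Plin4 lay at 2-fold in both conditions and passed the line in untreated cells alone. The difference fell to 0.50 untreated and 0.43 with palmitate under normexp background correction, which pulls dim probes together. In the authors' value table it was 0.90 untreated and 0.91 with palmitate, both under 2-fold. The probe lies on chromosome 17 at 56240055 to 56240114 (mm9).

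Plin5, which ties droplets to mitochondria in oxidative tissues and restrains ATGL, read −0.19 in control and 0.10 in Drp1LiKO, and −0.11 and 0.14 with palmitate. Both Drp1LiKO arrays were the higher ones, by 0.29 and 0.25, each under 2 times its scanner error of 0.20. The other Plin5 probe gave 0.30 and 0.15 in the same order. Plin4, Plin5 and Plin3 lie in this order on chromosome 17 in the RefSeq annotation of GRCm38.p6, with 7 genes between Plin5 and Plin3. Those 7 genes, from Lrg1 to Ticam1, differed between the genotypes by −0.34 to 0.14 in untreated cells and by −0.04 to 0.45 with palmitate.

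CIDE proteins came next. Cidea, which builds large droplets in brown fat and is scarce in lean liver but appears in fatty liver, read 1.55 in control and 3.04 in Drp1LiKO, and 1.32 and 2.85 with palmitate. The Drp1LiKO arrays were above both control arrays by more than 1 log2 unit. Cidea was 2.79-fold higher in Drp1LiKO untreated and 2.88-fold higher with palmitate, with log2 differences of 1.48 and 1.53 and a scanner error of 0.20. Among genes measured on both arrays, 3.39% of 17652 differed by at least this much untreated and 2.22% of 16784 with palmitate. Normexp background correction, the authors' value table and centring on the median kept the difference between 1.47 and 1.52 untreated. With palmitate they kept it between 1.47 and 1.53. The other settings could not change it, since the only Cidea probe was well above background on all 4 arrays. The gene lies on chromosome 18 and has 1 probe.

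Cideb, the CIDE protein that hepatocytes express constitutively and that loads lipid onto nascent VLDL particles, read 3.63 in control and 3.83 in Drp1LiKO, and 3.56 and 3.68 with palmitate. Its differences of 0.20 and 0.11 were within the scanner error, and the dimmer Cideb probe gave 0.05 and 0.09.

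Cidec, also called Fsp27, which makes the single large droplet of white fat cells and rises in steatotic liver, read 1.07 in control and 0.40 in Drp1LiKO, and 0.63 and −0.12 with palmitate. Both Drp1LiKO arrays were below both control arrays. Cidec was 1.59-fold lower in Drp1LiKO untreated and 1.68-fold lower with palmitate, with a scanner error of 0.20 on either log2 difference. The probe lies on chromosome 6 at 113374693 to 113374752 (mm9). Of genes measured on both arrays, 16.1% differed by at least the size of the untreated Cidec difference and 9.65% by at least that with palmitate.

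**Figure D2:**
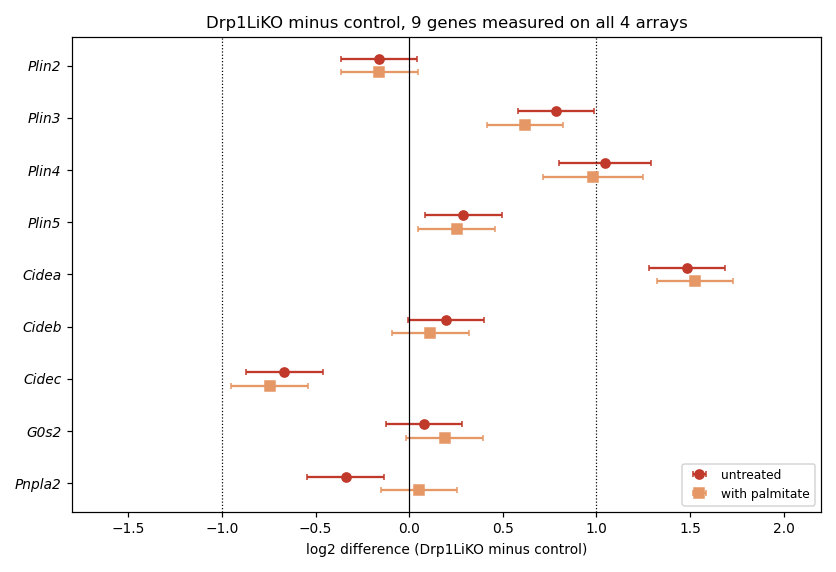
Log2 difference of Drp1LiKO minus control for the 9 genes measured on all 4 arrays, untreated (circles) and with palmitate (squares). Bars are the scanner software's error of a difference between 2 single arrays, and dotted lines mark 2-fold. Plin3, Plin4 and Cidea lie right of 0 and Cidec left of it in both conditions by more than 2 scanner errors, and Pnpla2 lies on different sides of 0.

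The lipolysis genes Pnpla2 and G0s2 differed less than Plin3, Plin4, Cidea and Cidec. Pnpla2, which encodes ATGL, read 2.85 in control and 2.51 in Drp1LiKO, and 2.65 and 2.70 with palmitate, on a probe on chromosome 7 at 148645928 to 148645987 (mm9). It was lower in untreated Drp1LiKO cells by −0.34 and differed by 0.05 with palmitate, both under 2 scanner errors. G0s2, the inhibitor that binds ATGL, read 1.41 in control and 1.49 in Drp1LiKO, and 1.42 and 1.61 with palmitate. Its differences of 0.08 and 0.19 were within the scanner error, and the Drp1LiKO palmitate array was the highest.

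Pnpla3, a hydrolase of the droplet surface known for a human variant that goes with fatty liver, was the one gene without a measured level on most arrays. Its brighter probe read −2.99 on the untreated Drp1LiKO array and was well above background there alone. On the other arrays the spot read −6.95 in control, −5.81 in control with palmitate and −6.76 in Drp1LiKO with palmitate, none of them well above background. Set against the dimmest probe well above background on the control array, Pnpla3 was at least 3.34-fold higher on the untreated Drp1LiKO array than in control, and likewise at least 2.87-fold higher than in Drp1LiKO with palmitate. These bounds hold for the processed signal alone, since under normexp background correction the log2 difference from control was 1.02, against 3.96 as measured and 1.74 at the bound. The other Pnpla3 probe was well above background on 0 arrays, so the value rests on 1 spot of 1 array. Of the 24 spot positions around it, 1 also stood out on that array alone, where the mean over all spots is 0.138, and its part in the value was not tested.

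The second question was how these genes differed with palmitate in each genotype. No gene of the 9 measured on all 4 arrays changed as much as 2-fold, and the largest shift was that of Cidec. In control cells 0 of 9 genes were at least 2-fold higher or lower with palmitate, where 2.83% of 18772 genes were higher and 2.87% lower. In Drp1LiKO cells 0 of 10 were higher and 1, the dim Pnpla3, was lower, where 3.93% of 19747 genes were higher and 3.11% lower. The median response was −0.07 in control and −0.05 in Drp1LiKO (−0.01 without Pnpla3), against 0.01 and 0.00 over all genes. If the palmitate arrays lie on another slide, these values hold palmitate and slide together.

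Cidec was lower with palmitate in both genotypes, by −0.44 in control and −0.52 in Drp1LiKO, each over 2 scanner errors. In control cells 9.19% of 16829 genes measured on both arrays moved by at least that much, and in Drp1LiKO cells 11.2% of 17853. Cidea was lower by −0.23 and −0.18, and Plin2 by −0.09 and −0.08. Plin4 was higher by 0.16 and 0.10, Plin5 by 0.08 and 0.04 and G0s2 by 0.01 and 0.12, and none of these exceeded the scanner error by a factor of 2. Responses of the genotypes differed by 2-fold or more for 1 of 10 genes, again the dim Pnpla3, where 10.8% of 20615 genes did so. Among the 9 other genes it was largest for Pnpla2, at 0.39.

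**Figure D3:**
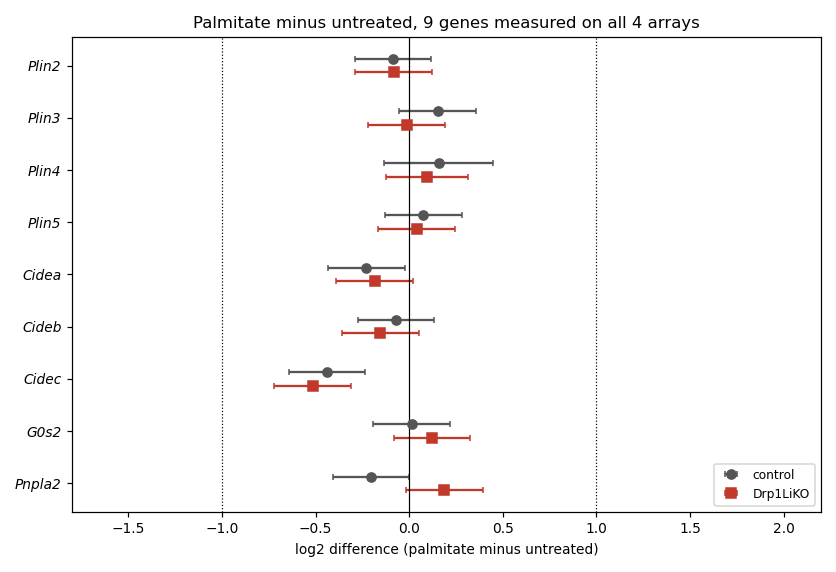
Log2 difference of palmitate minus untreated for the 9 genes measured on all 4 arrays, in control (circles) and Drp1LiKO (squares), on the same axis as the plot of genotype differences. Bars are the scanner software's error and dotted lines mark 2-fold. All values lie between −0.52 and 0.19, and Cidec lies left of 0 in both genotypes.

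Untreated and palmitate arrays of a genotype stood in for replicates in a fit over all 4 arrays, with genotype and palmitate as additive terms. Its SE and p-values therefore do not measure the spread between animals or cultures. The fit leaves 1 residual degree of freedom. In limma with Benjamini-Hochberg adjustment it called 0 of 20615 genes (0%) for genotype and 0 (0%) for palmitate at an adjusted p under 0.05. At an unadjusted p under 0.05 there were 5363 genes for genotype, 4 of the 10 among them, and 1995 for palmitate, 1 of the 10 among them. The genotype effect in limma was 1.51 ± 0.07 (SE, 4 arrays) for Cidea with an adjusted p of 0.119, 1.01 ± 0.07 for Plin4 with 0.119, 0.70 ± 0.09 for Plin3 with 0.132 and −0.71 ± 0.07 for Cidec with 0.124. The palmitate effect of Cidec was −0.48 ± 0.07 with an adjusted p of 0.511.

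These calls depended on the variance model and on the probes entered. With an intensity trend in the prior variance limma called 26% of genes for genotype, and 5 of the 10 (Cidea, Plin3, Cidec, Plin4 and Plin2). Entering just the genes measured on every array gave calls for 15.6% of genes, and for 4 of 9 (Cidea, Plin3, Cidec and Plin4). Under normexp background correction it called 7.37% of genes, and 3 of 10 (Cidea, Plin3 and Cidec).

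The wider droplet and triglyceride pathway was read from gene lists. Of other coat and surface proteins, 10 of 11 were measured. Hilpda, a small droplet protein that inhibits ATGL and responds to fatty acids and low oxygen, read 2.48 in control and 4.61 in Drp1LiKO, and 2.12 and 4.59 with palmitate. Its difference of 2.13 untreated and 2.48 with palmitate was larger than that of any of the 9 well measured genes above. Hsd17b13, a liver droplet enzyme, was higher by 0.98 and 1.18. The others, among them Rab18, Aup1 and Faf2, differed by −0.55 to 0.40, and Plin1, the perilipin of white fat cells, was well above background on 0 arrays. The list median was 0.05 untreated and 0.03 with palmitate. With palmitate the median shift was −0.12 for control cells and −0.01 for Drp1LiKO cells, and 0 of its genes passed 2-fold. Over all genes 2.83% were higher and 2.87% lower with palmitate in control cells, and 3.93% and 3.11% in Drp1LiKO cells.

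Droplet assembly genes, such as Bscl2 (seipin) and Fitm2, shape droplets as they bud from the endoplasmic reticulum. Between the genotypes 0 of 7 differed by 2-fold in untreated cells and 0 of 6 with palmitate. Over all genes 8.84% were higher and 5.58% lower untreated, and 7.26% and 4.26% with palmitate. At these shares a count of 0 in so short a list says little. Untreated values ran from −0.73 to 0.53 with a median of −0.27 and 5 below 0. With palmitate the median was −0.21 and 4 were below 0. Pcyt1a and Mospd2 were above 0 in both conditions.

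Of 14 other lipases and cofactors measured untreated, 3 were at least 2-fold higher in Drp1LiKO and 0 lower, with a median of 0.40, beside 8.84% and 5.58% of all genes and their median of −0.02. Of 13 with palmitate 3 were higher and 0 lower, with a median of 0.53, beside 7.26% and 4.26% of all genes and their median of −0.03. On 1 of the untreated 3 and 1 of the 3 with palmitate, Lipe and Pnpla5, the probe was above background on the Drp1LiKO array alone. Of those measured on both arrays, 2 of 12 were higher and 0 lower in each condition. Their median was 0.36 untreated and 0.43 with palmitate. The carboxylesterases Ces1d, which mobilises stored triglyceride for VLDL, and Ces1f were the ones measured on both arrays, at 1.25 and 1.06 untreated and 1.40 and 1.19 with palmitate. The Ces1 genes are close copies, and how far a probe of one also binds transcripts of another was not tested. Abhd5, the coactivator of ATGL, was higher by 0.45 and 0.53, and Mgll, the monoglyceride lipase, was lower by −0.75 and −0.71. With palmitate the dim Pnpla5 was higher by 1.31 in Drp1LiKO cells.

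Of 16 triglyceride and sterol ester synthesis enzymes, all measured untreated, 4 were at least 2-fold higher and 1 lower, beside 8.84% and 5.58% of all genes, and the median was −0.10. The lower one, the dim Gpat2, was above background on the control array alone. Soat1, which esterifies cholesterol, was higher by 1.48, the phosphatidate phosphatase Lpin1 by 1.25 and Agpat1 by 1.11. With palmitate 2 of 15 were higher and 0 lower, beside 7.26% and 4.26% of all genes, with a median of −0.01. Lpin1 then differed by 0.87 and Agpat1 by 0.63, both under 2-fold, and Soat1 by 1.42 with its probe dim in control. Of the enzymes measured on both arrays, 4 of 15 were higher untreated and 1 of 14 with palmitate, and 0 were lower. Dgat2, which adds the last fatty acid of a triglyceride, was higher by 1.13 with palmitate and by 1.02 untreated.

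Of 14 transcription regulators, 3 were at least 2-fold higher untreated, beside 8.84% of all genes, and 2 with palmitate, beside 7.26%. In both conditions 0 were lower, beside 5.58% and 4.26%. Ppargc1a, the coactivator of mitochondrial genes, was higher by 1.21 and 1.27, Creb3l3, a liver factor of triglyceride metabolism, by 1.18 and 1.21, and Ppard by 1.04 and 0.79. Among factors known to act on droplet genes, Pparg differed by 0.80 untreated and 0.30 with palmitate, and Ppara by 0.09 and 0.07. With palmitate Pparg was lower by −0.79 in Drp1LiKO and by −0.29 in control.

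**Figure D4:**
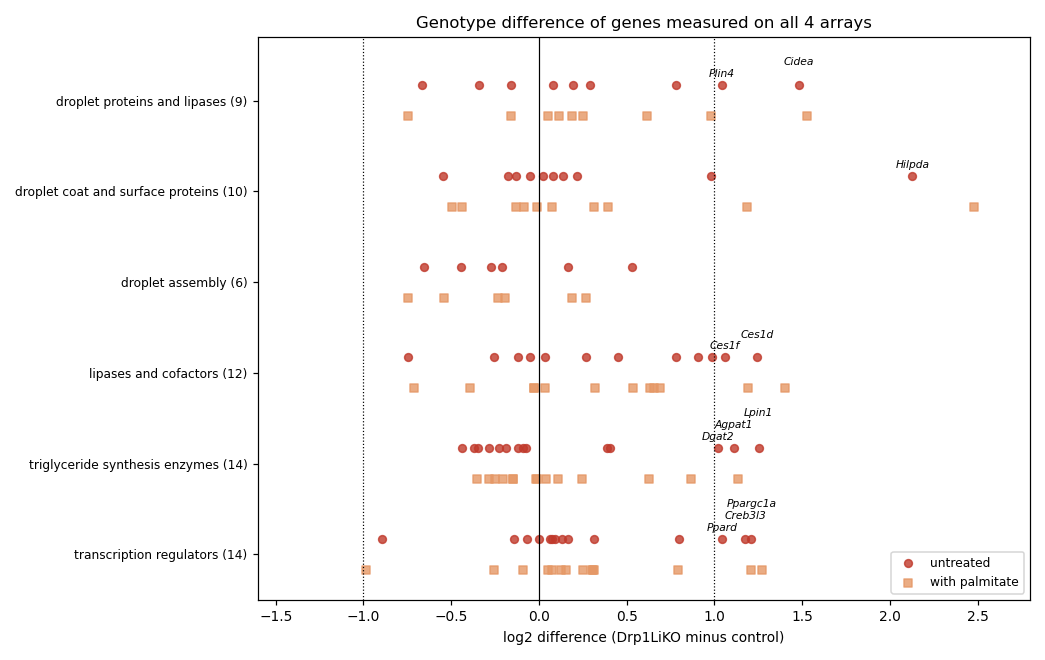
Log2 difference of Drp1LiKO minus control for each gene well above background on all 4 arrays, by list, untreated (circles) and with palmitate (squares). Numbers in brackets count the genes, dotted lines mark 2-fold, and names are given where the untreated difference passed 2-fold. Hilpda lies farthest from 0, at 2.13 and 2.48.

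Marker genes of other liver cells differed with genotype in these cultures. Several of them were above background on the Drp1LiKO array alone and entered only because they were high there, so the counts given are of markers measured on both arrays. At least 2-fold higher in Drp1LiKO were 6 of 9 macrophage markers untreated and 4 of 7 with palmitate, 3 of 5 and 2 of 4 stellate cell markers, and 4 of 6 and 3 of 4 endothelial markers. Of these lists 0 were at least 2-fold lower on both arrays, and the dim Tek was lower with palmitate. Over all genes above background on either array compared, a wider filter than that of these counts, 8.84% were higher untreated and 7.26% with palmitate. Of the 10 hepatocyte markers 2 were higher in each condition, Tat and Ass1 (1.23) untreated and Tat (1.22) and Cps1 (1.12) with palmitate, and 0 were lower. The summed macrophage level, in units of the 75th percentile, was 23.9 in control, 49.9 in Drp1LiKO, 29.2 in control with palmitate and 51.5 in Drp1LiKO with palmitate. The summed stellate cell level was 45.2, 62.6, 46.5 and 59.3 in the same order, most of it Acta2, without which it was 1.07, 11.0, 1.23 and 13.3. The endothelial sum was 1.2, 3.7, 1.2 and 2.2. The summed hepatocyte level, carried by a few bright genes, stayed between 1585 and 1626. The cholangiocyte sum of 60.5, 41.8, 57.1 and 43.6 was mostly Spp1, without which it was 9.60, 8.20, 5.98 and 4.97. In untreated Drp1LiKO cells Krt19 was lower by −0.37 and Spp1 by −0.60, while Sox9 was higher by 0.45. Under palmitate Krt19 and Spp1 were each lower by −0.40 and Krt7 by −0.45, while Sox9 was higher by 0.21. Krt7 was higher by 1.47 in untreated Drp1LiKO cells, with its probe dim in control. Timd4 among macrophage markers and Des among stellate cell markers were well above background on 0 arrays. Plin2, Plin3 and Pnpla2 are not confined to hepatocytes, and the part of other cells in the differences of the droplet genes was not tested. In bulk RNA, fewer cells of a type and less RNA per cell cannot be told apart.

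Plin4, Cidea and Cidec are best known from fat cells. Of 7 adipocyte markers, 5 (Adipoq, Plin1, Ucp1, Retn and Cfd) were well above background on 0 arrays, and Lep and Fabp4 differed between the genotypes by −0.36 to 0.09.

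The genes whose 4 values ran most like those of Plin4, Cidea and Cidec, the 3 genes that were measured on all arrays and ranged over at least 1 log2 unit, were sought among 15409 named genes. Likeness was the Euclidean distance between mean-centred log2 values over 4 arrays, which is few. Cidea ran closest to the fatty acid hydroxylases Cyp4a12a and Cyp4a12b, at distances of 0.06 and 0.08, followed by Car2 at 0.08. Cyp4a12a and Cyp4a12b are near-identical copies and count as 1 pattern at best. Cyp4a12a read 0.10 in control, 1.63 in Drp1LiKO, −0.06 in control with palmitate and 1.48 in Drp1LiKO with palmitate. Plin4 ran closest to Prelid2 and Gnpda1, at 0.04 and 0.07, and Cidec to Fhod3, Slc25a48 and Ank, at 0.05, 0.07 and 0.11.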

How the data were processed

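Total RNA was labelled with Cy3 and hybridised to SurePrint G3 mouse arrays. The 4 deposited scanner tables, 1 per array, hold intensity values that the authors' Agilent Feature Extraction software (10.7.1.1 in the file headers, 9.5.1.1 in the submitters' processing notes) had corrected for background, with no scaling between arrays. The authors' value table holds intensity with the ranks of the scanner values and the same sorted values in each column, as quantile normalization gives, and was tried in place of the scanner values. RNA kits differ between labels and methods. The log2 of the processed signal was taken relative to the array's 75th percentile, leaving out control spots and spots flagged as outliers. Repeat spots were averaged, and a gene was represented by its probe with the highest mean among those the scanner flagged well above background on 1 or more arrays. A difference counted at 2-fold or more if that flag held on either array compared. The 4 arrays were fitted with limma 3.58.1 (R 4.3.3), two-sided, by lmFit and eBayes. The genotype fit was also run on simulated data, which gave all genes the same spread, unlike the arrays. Named genes were all 10 members, list genes past 2-fold on probes measured on both arrays (up to the 3 largest per list and comparison), and the 3 most alike genes, of which 1 is not reported here. Other genes of the lists named in the text were chosen after their values were seen. The members and gene lists were chosen with earlier results of these data known. Precision is limited by the number of arrays.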

Additional observations from a re-analysis of the deposited data

Results flagged for a closer look

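Pnpla2, which encodes ATGL, responded to palmitate in opposite directions in the genotypes. It read −0.20 with palmitate against untreated in control cells and 0.19 in Drp1LiKO cells, a difference of 0.39. By the same arithmetic its genotype difference was −0.34 untreated and 0.05 with palmitate, which differ by 0.39. Plin3 responded by 0.15 in control cells and −0.01 in Drp1LiKO cells, a difference of −0.17. With 1 array per group these differences were not tested, and the single-array responses were within 1 scanner error of 0.20 log2 units, except the untreated genotype difference of Pnpla2.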

How the results depend on the processing

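The pairwise differences were recomputed under 8 other settings. Of 418 such values, 387 stayed within the noise of repeat spots. Many of these 387 could not have moved. Changing the background filter, or raising values below background, leaves the values of a gene measured on all 4 arrays as they were. Averaging probes likewise leaves those of a gene with 1 probe. The share that stayed therefore says little about stability. Of 54 recomputed counts, those of limma among them, 45 stayed within 1.5 times. Within that margin the untreated genotype count fell from 3 to 2 under normexp and in the authors' value table. It also fell from 3 to 2 when the probe had to be above background on both or on all 4 arrays. The count of genes past 2-fold for the palmitate response in Drp1LiKO fell from 1 to 0 under normexp background correction and when the probe had to be above background on both or on all 4 arrays, as Pnpla3 dropped below the line or out of the filter. The difference of the palmitate responses likewise fell from 1 to 0 under both filters. With no filter, the count for the palmitate response in control rose from 0 to 1, the dim Pnpla3 at 1.14. In limma the genotype count rose from 0 to 3 under normexp, to 4 with that filter on all 4 arrays and to 5 with an intensity trend, and the cause was not tested. The palmitate effect of Plin5 reversed from 0.058 to −0.052 when all its probes were averaged. The genotype differences of Cidea, Plin3, Plin4 and Cidec kept their direction in all these settings. Filters and the averaging of probes could not change them, since each of these genes has 1 probe measured on all 4 arrays. The untreated difference of Pnpla3 was 1.02 under normexp. No paired analysis was possible because each group has 1 array and so no second replicate number. In the additive fit the palmitate term can stand for slide. No array could be left out, since 3 arrays leave no residual degree of freedom beside both terms. Probes near background limit Plin4 and Pnpla3.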
